A study of Homo sapiens with 12 samples.

Results

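Cytosolic ribosomal proteins are the protein components of the ribosome, the particle that translates mRNA. The large subunit joins amino acids and the small subunit reads the message, and each protein is needed in one copy per subunit apart from the acidic stalk proteins. The mRNAs of most of them begin with a C followed by a run of pyrimidines, the terminal oligopyrimidine (TOP) motif, through which growth signaling by mTORC1 acts on their translation. In neuroblastoma, MYCN is known to raise ribosome production. Genes were taken from the count table by name alone: symbols beginning RPL or RPS followed by a number, with an A or X allowed at the end, plus RPLP0, RPLP1, RPLP2, RPSA and FAU. This gave 78 of the 43769 genes, 46 of the large and 32 of the small subunit, and all 78 passed the expression filter and were among the 15828 genes tested.

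The cells were SK-N-DZ, a MYCN-amplified human neuroblastoma line, as a single clone in which doxycycline switches on a short hairpin RNA against ARID1A, a subunit of the SWI/SNF chromatin remodeler. All 4 groups carried the hairpin construct and its selection marker, and each had 3 replicates: control with neither agent (C), doxycycline for 4 days (D), IFNγ for 24 h (I) and both (DI). C and I are labelled wild type and D and DI as ARID1A knockdown. No group analysed here received doxycycline without the hairpin, so the antibiotic and the knockdown cannot be told apart, and 1 clone stands for the line. Nothing in the labels says that replicates came from separate cultures, so p-values measure the spread between these libraries, which may be technical.

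Libraries held 16469832 to 21790869 counts, at which the detection floor of 3 counts equals 0.135 to 0.187 CPM (counts scaled to library size, here after TMM, edgeR's correction for composition). ARID1A, the hairpin's target, stood at 197, 186 and 165 CPM in control libraries, 197, 159 and 158 under doxycycline, 192, 203 and 194 under IFNγ and 151, 133 and 148 under both. Its log2 fold change was −0.092 for D vs C (edgeR adjusted p = 0.788) and −0.44 for DI vs I (adjusted p = 0.115), so neither passed the threshold of 0.05 and the groups are named by their labels. All 9 neuroblastoma markers examined were above the floor in every library, summing to 4608 to 5844 CPM. Markers of leukocytes (0.198 to 1.496 CPM summed over 5 genes), endothelium (0.116 to 2.95 over 4) and epithelium (0.374 to 2.95 over 4) were near 0, and 5 fibroblast markers summed to 12.3 to 65.9 CPM.

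TOP starts were read from RefSeq (GRCh38.p14), in which 63 of the 78 genes had an entry. In 43 of these (68.3%) the annotated transcript began with C and at least 4 further pyrimidines. The same held for 1104 of all 27305 RefSeq genes with an entry (4.04%), which include the 63 and were not limited to genes of the count table. The share was 25 of 38 in the large subunit and 18 of 25 in the small. The windows below run from 10 bases before the start to 20 bases into the transcript, 5′ to 3′, with the unbroken pyrimidine run at the start in capitals. They show genes described below with runs of 7 to 11 bases (the median over the 63 genes was 7), and RPS28 and RPL4, whose annotated starts have none. Only the annotated start was read, and starts used in these cells were not measured.
RPLP0 (chr12:120201092-120201121, minus strand): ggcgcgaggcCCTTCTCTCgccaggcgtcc
RPLP1 (chr15:69452808-69452837, plus strand): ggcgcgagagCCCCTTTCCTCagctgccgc
RPSA (chr3:39406710-39406739, plus strand): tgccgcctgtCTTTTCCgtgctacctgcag
RPL13A (chr19:49487598-49487627, plus strand): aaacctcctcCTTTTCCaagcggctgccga
RPL29 (chr3:51995876-51995905, minus strand): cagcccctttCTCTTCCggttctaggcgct
RPL22 (chr1:6199576-6199605, minus strand): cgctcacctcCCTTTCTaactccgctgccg
RPS10 (chr6:34426050-34426079, minus strand): catgctccttCCTTTCCagccccggtaccg
RPS28 (chr19:8321486-8321515, plus strand): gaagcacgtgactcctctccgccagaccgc
RPL4 (chr15:66504836-66504865, minus strand): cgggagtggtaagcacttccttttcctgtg

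The ribosomal protein genes together took 6.299, 5.87 and 5.98% of all counts in control libraries, 5.25, 5.39 and 6.002% under doxycycline, 5.44, 5.002 and 5.697% under IFNγ and 5.34, 5.02 and 5.32% under both. The 4 highest libraries were the 3 controls and D replicate 3. Means were 6.05 ± 0.221% for control, 5.54 ± 0.403% for doxycycline, 5.38 ± 0.351% for IFNγ and 5.23 ± 0.1795% for both (SD, n = 3). Large subunit genes held 3.73 ± 0.137% in C and 3.198 ± 0.0879% in DI, and small subunit genes 2.32 ± 0.0852% and 2.03 ± 0.0917%. The ratio of large to small subunit counts ran from 1.52 to 1.66 over the 12 libraries, so both subunits took their share in nearly constant proportion. In bulk RNA, a change in every cell and a change in some of the cells cannot be told apart, and a share of counts gives no absolute amount. Mitochondrially encoded mRNAs, part of the same total, held 4.99, 3.77 and 3.35% in C, 4.42, 3.91 and 2.904% in I, 1.299, 1.08 and 0.856% in D and 2.58, 1.12 and 0.768% in DI, and their part in the shares above was not tested beyond leaving them out of the total, which gave 6.31 ± 0.282% in C and 5.31 ± 0.207% in DI.

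**Figure D1:**
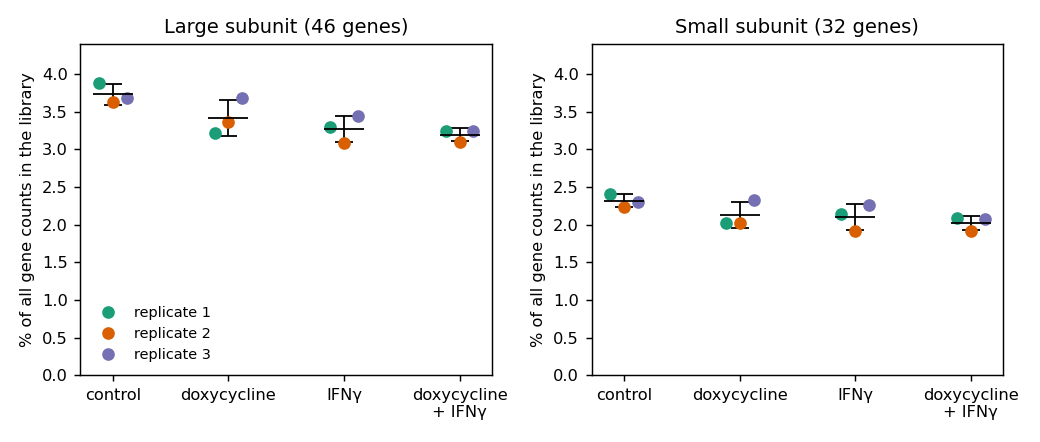
Percent of all gene counts held by large (left) and small (right) subunit genes in each library, with points coloured by replicate number and bars giving mean ± SD (n = 3). Control means are the highest in both panels, and D replicate 3 lies within the control range in both.

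Per length of transcript, the level of the median gene was 823 CPM per kb, with quartiles at 533 and 1233. The medians of the large and small subunits, 824 and 816 CPM per kb, were close. The highest levels were those of RPS2 (2512 CPM per kb), which lies by the mRNA entry channel, the stalk protein RPLP1 (2241), RPS15 (2054) and RPL7A (1955). Of the 100 tested genes with the highest level per kb, 52 were ribosomal protein genes.

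At the other end, 6 genes lay below 82.3 CPM per kb, 10 times under the median, among them RPL22 (79.5 CPM per kb), RPL26 (46.5), RPL17 (15.2), RPL36A (3.996) and RPS10 (1.17). RPS10 had 1.41, 0.497 and 0.499 CPM in control libraries, 1.43, 0.8797 and 1.45 under doxycycline, 0.544, 0.491 and 0.157 under IFNγ and 0.565, 0.359 and 0.721 under both, which is close to the floor. RPL36A had 2.83, 2.53 and 1.75 CPM in control libraries, 3.15, 3.21 and 4.23 under doxycycline, 2.57, 1.85 and 2.15 under IFNγ and 3.23, 1.897 and 3.74 under both. In GENCODE 29, 10 of the 78 genes overlap another protein-coding gene on their own strand, and all 6 of these low genes are among them: RPS10 shares its locus with the readthrough gene RPS10-NUDT3, RPL36A with RPL36A-HNRNPH2 and RPL17 with RPL17-C18orf32. How the counting treated reads that fit both genes is not given in the sources used here, so these levels are uncertain and may not be those of the mRNAs. Pseudogenes, untranslated copies named after ribosomal protein genes, held a further 4.89% of the genes' own counts, and for 6 genes (RPL36A, RPS10, RPL17, RPL9, RPS28 and RPL26) they held more counts than the gene itself, such as RPS28P7 with 57909 counts against 44390 for RPS28. Reads of these near-identical copies could be split between gene and copy.

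**Figure D2:**
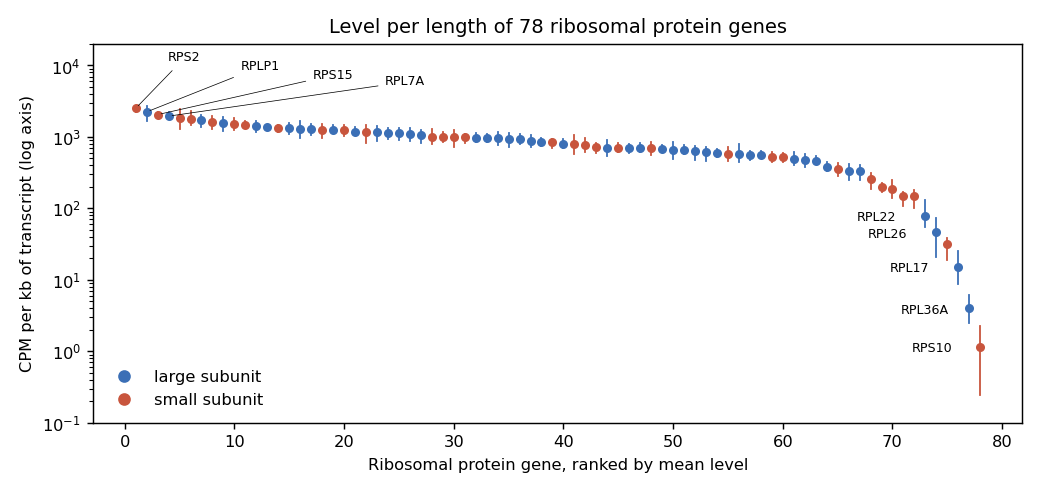
Mean level of each ribosomal protein gene over 12 libraries in CPM per kb of transcript (log axis), ranked, with lines from the lowest to the highest library. The curve is shallow down to 147 CPM per kb, and 6 genes lie below it, 5 of them labelled.

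The largest SDs of log2 CPM over the 12 libraries were those of RPS10 (0.77), RPL26 (0.49) and RPL17 (0.44), all among the low genes. RPL22, an RNA-binding protein of the large subunit chosen here after its values were seen, had 185, 101 and 94.0 CPM in control libraries, 121, 95.8 and 108 under doxycycline, 157, 87.3 and 79.2 under IFNγ and 142, 103 and 92.7 under both, and was highest in replicate 1 of all 4 groups. Its paralog RPL22L1 had 62.8, 86.7 and 92.9 CPM in control libraries, 77.04, 98.01 and 98.3 under doxycycline, 48.2, 75.2 and 75.6 under IFNγ and 68.5, 82.5 and 78.2 under both, and was lowest in replicate 1 of all 4 groups. The replicate numbers are no part of the treatment.

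IFNγ alone was compared with control to see what a day of the cytokine did to ribosomal protein mRNAs. RPL23, a large subunit protein on the face that meets the small subunit, also known to bind the p53 regulator MDM2, fell, and it was the 1 gene of 78 that passed. RPL23 (ENSG00000125691, chromosome 17, 38847865 to 38853843, minus strand) had 827, 829 and 791 CPM in control libraries, 733, 781 and 724 under doxycycline, 624, 644 and 624 under IFNγ and 587, 575 and 572 under both. The 6 libraries with IFNγ lay below the 6 without it, with no overlap in either pair of groups (log2 fold change −0.37, SE 0.0715, edgeR adjusted p = 0.0178). Over the 78 genes, log2 fold changes had their median at −0.13, against −0.0081 over all tested genes, and 76 of 78 were below 0. Over all genes 2.21% were called in either direction and 0.114% as lower. With the replicate number as a block, 3 genes passed, RPL23, RPL6 and RPL5, against a background of 1.14% lower, and DESeq2 also called 3 as lower, against 0.386%. Groups did not overlap for 19 genes lower in I, against 6.24% of all genes. The call of RPL23 was lost without C replicate 1, C replicate 2 or any 1 of the 3 I libraries (adjusted p up to 0.0907), and in a fit of these 6 libraries alone (adjusted p = 0.0824). Without I replicate 2 the median of the 78 genes was −0.079. In same-numbered pairs, 78, 75 and 51 of the 78 genes were lower in I, against 50.7, 49.9 and 50.9% of all tested genes.

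The same addition of IFNγ on a doxycycline background (DI vs D) again called only RPL23 (log2 fold change −0.37, SE 0.0715, edgeR adjusted p = 0.0217), of 1.72% of all genes called in either direction and 0.0505% lower. With the block it was again RPL23 alone, against 0.695% lower. The median of the 78 genes was −0.038 (all genes −0.012), with 54 below 0, and 7 genes did not overlap and were lower, against 3.78% of all genes. Same-numbered pairs disagreed: 24 of 78 genes were lower in DI in pair 1, 48 in pair 2 and 76 in pair 3. Over all tested genes these shares were 52.3, 51.6 and 51.3%. Without D replicate 3 the median of the 78 genes was 0.041. The RPL23 call was lost without any 1 of 9 libraries, namely every library except C replicate 3, I replicate 2 and I replicate 3 (adjusted p up to 0.0989). The difference between the IFNγ effects with and without doxycycline was 0.0016 for RPL23 (SE 0.101).

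**Figure D3:**
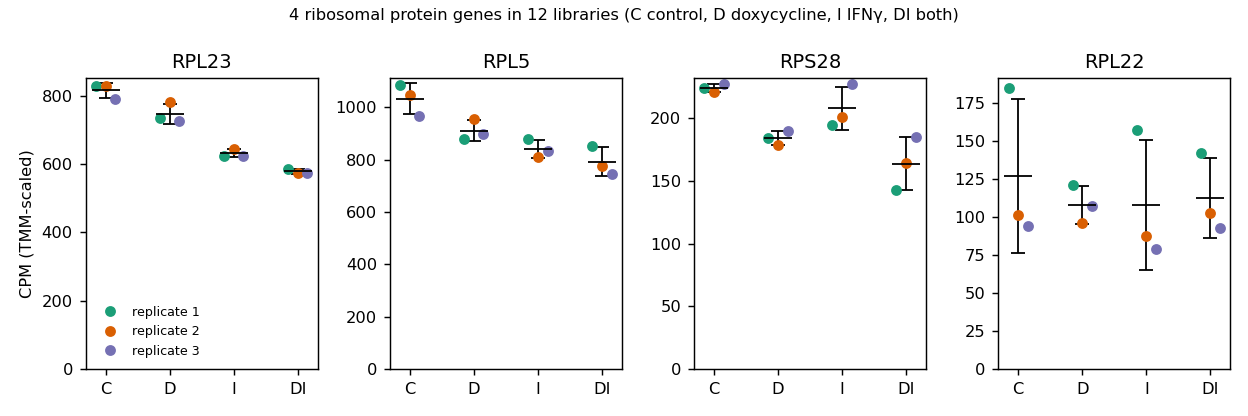
TMM-scaled CPM of RPL23, RPL5, RPS28 and RPL22 in the 12 libraries (C control, D doxycycline, I IFNγ, DI both), points coloured by replicate number and bars giving mean ± SD (n = 3). RPL23 lies between 572 and 644 CPM in the 6 libraries with IFNγ and between 724 and 829 in the 6 without, and RPL22 is highest in replicate 1 of each group.

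Doxycycline alone (D vs C) was compared for the effect of inducing the hairpin. No ribosomal protein gene passed by edgeR, of 1.23% of all genes called in either direction. Most values nonetheless lay below 0: 71 of 78 did, with a median of −0.19 (large subunit −0.21, small −0.18, all genes −0.0012), and 25 of 78 had an unadjusted p under 0.05 against 14.2% of all genes. With the block 22 genes passed, all lower, where 7.67% of all genes were called lower, and DESeq2 called 11, all lower, against 3.37% of the genes it gave an adjusted p. Groups did not overlap for 28 genes lower in D, against 9.10% of all genes. In same-numbered pairs, 72, 63 and 53 of the 78 genes were lower in D, against 50.5, 49.4 and 50.3% of all tested genes. Of the 78, 45 were lower in all 3 pairs and 3 were higher in all 3. Without D replicate 3 the median was −0.29. Without composition scaling it was −0.099 with 60 of 78 below 0, while the median of all genes moved to 0.085.

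Among the lowest values was that of RPSA. RPSA, a small subunit protein also known as the laminin receptor, had 1036, 889 and 1057 CPM in control libraries, 725, 674 and 762 under doxycycline, 932, 756 and 1035 under IFNγ and 785, 684 and 719 under both, with every D library below every C library (log2 fold change −0.46, SE 0.124, edgeR adjusted p = 0.113, 0.00449 with the block). The highest values were those of the 2 lowest-count genes, RPS10 (log2 fold change 0.64, SE 0.5598, edgeR adjusted p = 0.6796) and RPL36A (log2 fold change 0.57, SE 0.316, edgeR adjusted p = 0.459).

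Fold changes in D vs C went with transcript length in all genes. Ribosomal protein transcripts are short, with a median of 738 bases, and 60 of 78 are under 1000. Among other tested protein-coding genes the median log2 fold change in D vs C was −0.16 for the 994 under 1000 bases, −0.087 from 1000 to 2000, −0.0093 from 2000 to 4000 and 0.12 above 4000. The ribosomal protein median there was −0.19. In I vs C the same bins gave −0.060, −0.029, −0.0072 and 0.040, against −0.13 for ribosomal protein genes. In DI vs C other genes under 1000 bases had a median of −0.15 against −0.25. In DI vs D the order of the bins was the opposite, from 0.0044 under 1000 bases to −0.025 above 4000, against −0.038. The part of length, and of the mitochondrially encoded share given above, in the shift was not tested.

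**Figure D4:**
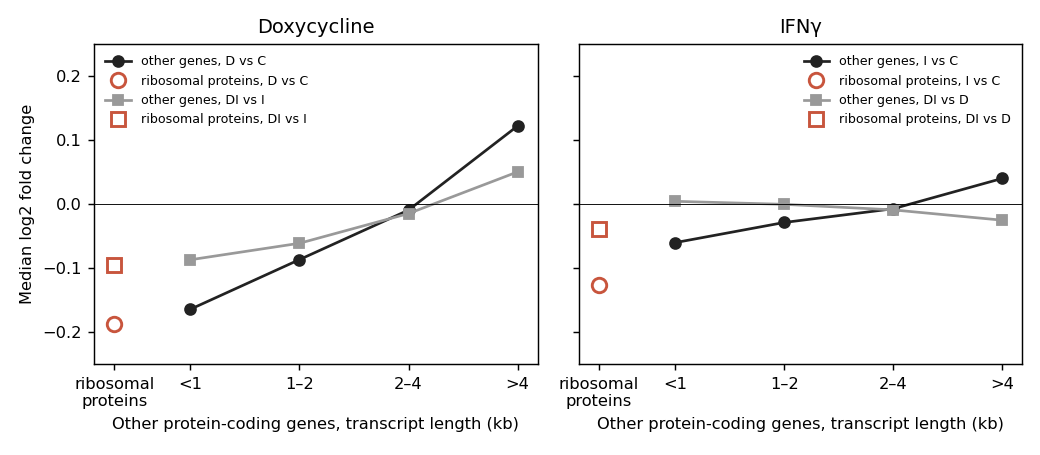
Median log2 fold change of other tested protein-coding genes by transcript length (filled) beside that of the 78 ribosomal protein genes (open), for doxycycline (left, D vs C and DI vs I) and IFNγ (right, I vs C and DI vs D). In D vs C the medians climb from −0.16 under 1 kb to 0.12 above 4 kb, and the ribosomal protein median is −0.19.

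Doxycycline on an IFNγ background (DI vs I) gave no call among the 78 genes, of 0.670% of all genes called in either direction. The median was −0.095 (all genes −0.0068) with 59 below 0, 15 genes had an unadjusted p under 0.05 against 12.2% of all genes, and 15 did not overlap and were lower, against 8.41% of all genes. With the block 12 genes passed as lower, against a background of 6.62%, and DESeq2 called 7 as lower, against 2.97%. Without composition scaling the median was −0.0025 with 39 of 78 below 0, while the median of all genes moved to 0.085. Without I replicate 3 it was −0.041, and without I replicate 2 −0.14. Other genes under 1000 bases had a median of −0.087. Among the lowest fold changes was that of RPS28, a small subunit protein, which had 224, 221 and 227 CPM in control libraries, 184, 179 and 189.7 under doxycycline, 195, 201 and 228 under IFNγ and 143, 164 and 185 under both and did not overlap between DI and I (log2 fold change −0.34, SE 0.103, edgeR adjusted p = 0.193, 0.0188 with the block). RPL26 had 44.6, 26.1 and 31.04 CPM in control libraries, 25.5, 26.8 and 49.9 under doxycycline, 27.3, 14.3 and 21.5 under IFNγ and 39.9, 35.02 and 34.1 under both and was the highest (log2 fold change 0.79, SE 0.306, edgeR adjusted p = 0.325), with RPS10 next (log2 fold change 0.46, SE 0.588, edgeR adjusted p = 0.848).

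Both agents against control (DI vs C) gave the most calls, 8 genes, all lower: 6 of the large subunit (RPL23, RPL15, RPL13A, RPL4, RPL5 and RPL29) and 2 of the small, among them RPS28. Over all genes 4.52% were called in either direction and 1.57% as lower. The median was −0.25 (all genes −0.00050), with 73 of 78 below 0, and 44 genes did not overlap and were lower, against 10.3% of all genes. With the block 41 passed, all lower (background 9.46%), and DESeq2 called 20, all lower (background 3.45%). This comparison shares its control libraries with D vs C and I vs C, and its DI libraries with DI vs I and DI vs D.

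RPL23 had the smallest adjusted p (log2 fold change −0.50, SE 0.0716, edgeR adjusted p = 0.00225), and its call held without each library in turn. RPL5, which carries the 5S rRNA with RPL11 and also binds MDM2, had 1084, 1048 and 968 CPM in control libraries, 879, 957 and 898 under doxycycline, 879, 811 and 833 under IFNγ and 854, 778 and 745 under both, with every DI library below every control library (log2 fold change −0.38, SE 0.0863, edgeR adjusted p = 0.0305). RPL11 did not pass (log2 fold change −0.16, SE 0.105, edgeR adjusted p = 0.5096). RPL13A, known also from an interferon-induced complex that silences mRNAs, had 1341, 1198 and 1275 CPM in control libraries, 1003, 991 and 1062 under doxycycline, 1176, 1024 and 1212 under IFNγ and 964, 891 and 956 under both (log2 fold change −0.44, SE 0.0897, edgeR adjusted p = 0.0184). Its D and DI libraries lay below every control library, and its I libraries reached into the control range.

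RPL15 had 1578, 1515 and 1479 CPM in control libraries, 1214, 1305 and 1225 under doxycycline, 1357, 1358 and 1411 under IFNγ and 1191, 1202 and 1125 under both (log2 fold change −0.38, SE 0.07401, edgeR adjusted p = 0.0148). RPL4, which reaches into the peptide tunnel, had 2562, 2379.7 and 2379.7 CPM in control libraries, 2201, 2181 and 2062 under doxycycline, 2208, 2339.9 and 2139.9 under IFNγ and 1945, 1908 and 1846 under both (log2 fold change −0.36, SE 0.07599, edgeR adjusted p = 0.0221). RPS28, of which mutations are known in Diamond-Blackfan anemia, passed as well (log2 fold change −0.45, SE 0.103, edgeR adjusted p = 0.0322), subject to the counts of its copy RPS28P7 given above. RPL29 passed with a larger adjusted p (log2 fold change −0.33, SE 0.0786, edgeR adjusted p = 0.0367). In each of these genes the DI libraries lay below all 3 controls. The number of calls was 1 (RPL23) without C replicate 1, 2 without C replicate 2, DI replicate 2 or DI replicate 3, 3 without C replicate 3, 4 without I replicate 1, 5 without DI replicate 1 and 6 or 7 without any other single library. In a fit of the 6 libraries of these groups alone it was 1.

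**Figure D5:**
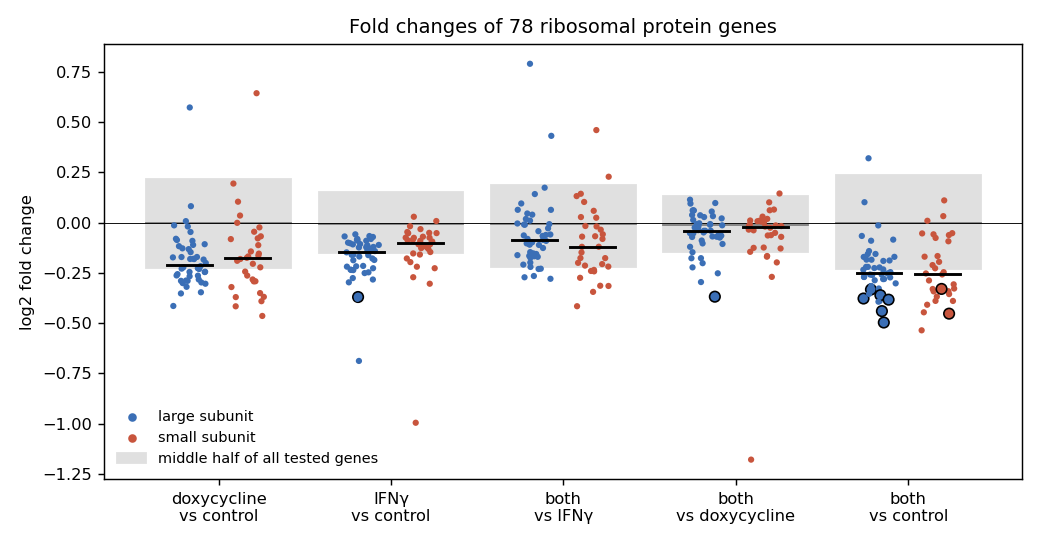
Log2 fold change of each ribosomal protein gene in 5 comparisons, large subunit left and small right within each, with black bars at the medians, outlined points for genes with an edgeR adjusted p under 0.05, and grey boxes for the interquartile range of all tested genes. Medians lie below 0 in all 5 comparisons, lowest in DI vs C, and the outlined points are 8 in DI vs C and RPL23 in each IFNγ comparison.

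The interaction, which asks whether IFNγ acted differently with doxycycline, gave no call among the 78 genes by edgeR, by edgeR with the block or by DESeq2, and none at an unadjusted p under 0.05. Over all genes the background was 0% with and without the block. The median was 0.085 (all genes −0.0055), with 66 of 78 above 0, against 7697 of all 15828 tested genes. It ran from 0.046 (without I replicate 2) to 0.15 (without I replicate 3) as single libraries were left out. Other tested protein-coding genes under 1000 bases had a median interaction of 0.064, and those above 4000 bases −0.066. The part of length in this shift was not tested. The extremes were RPL26 (log2 fold change 0.78, SE 0.4303, edgeR adjusted p = 1.00), RPL36 (log2 fold change 0.35, SE 0.198, edgeR adjusted p = 1.00), RPS10 (log2 fold change −0.18, SE 0.8295, edgeR adjusted p = 1.00) and RPL36A (log2 fold change −0.14, SE 0.447, edgeR adjusted p = 1.00), of which 3 are low-count genes.

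The 4 stalk and stalk-base genes (RPLP0, RPLP1, RPLP2 and RPL12), which recruit translation factors, were all below 0 in D vs C (median −0.30) and DI vs C (−0.26), and none passed by edgeR. With the block RPLP0 and RPLP1 passed as lower in D vs C (adjusted p = 0.00722 and 0.0155) and likewise for DI vs C (0.00242 and 0.0274), and RPLP0 in DI vs I (0.0293). In DI vs D the 4 genes split 2 above and 2 below 0. RPLP0 had 2052, 1765 and 2101 CPM in control libraries, 1462, 1369 and 1803 under doxycycline, 1827, 1579 and 2034 under IFNγ and 1520.1, 1345 and 1639 under both, with D replicate 3 above the lowest control library. The 5S RNP pair had 1 call, RPL5 in DI vs C, and with the block RPL5 also passed in I vs C (adjusted p = 0.0297). Of 18 Diamond-Blackfan anemia genes 17 were below 0 in DI vs C and 3 passed (RPL15, RPL5 and RPS28), and with the block 7 passed there, 2 in D vs C, 1 in I vs C and 2 in DI vs I, all lower. The 4 X-linked genes (RPS4X, RPL10, RPL36A and RPL39) had no call by edgeR. With the block RPS4X and RPL10 passed as lower in D vs C (adjusted p = 0.0206 and 0.0194) and likewise for DI vs C (0.00532 and 0.0108), and RPS4X in DI vs I (0.0237). In DI vs I these 4 genes split 2 above and 2 below 0, with a median of −0.018. RPS27A and FAU, whose products are made as fusions to ubiquitin or a ubiquitin-like protein, had none with or without the block, and RPS27A lay above 0 in D vs C (0.10).

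Of the 10 paralogs and related genes outside the naming rule, RPL3L and RPL10L were at or near 0 and were not tested, and the other 8, among them RPL7L1, RPL22L1, RPL26L1, RPL36AL, RPL39L, RPS27L and RACK1, passed in no comparison by edgeR. RACK1, a scaffold on the small subunit, was the highest of them at 1675 CPM per kb. With the block, RPL36AL passed as lower in D vs C (−0.41, adjusted p = 0.0403), RPS27L, a p53 target, as higher in DI vs I (0.42, 0.0191), and RPL7L1 and RACK1 were among those that passed as lower in DI vs C.

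Of 42 assembly factors, which process rRNA and build the subunits, 39 were below 0 in I vs C (median −0.21) and 40 in DI vs D (−0.21), while 29 were above 0 in D vs C (0.12), and none passed by edgeR in any comparison, while with the block 2 passed as lower in I vs C, 3 in DI vs D, 9 in DI vs C and 1 in D vs C, and 2 passed as higher in D vs C, with 1 in DI vs I. Over all genes the block called 6.23% as higher in D vs C, with 3.85% in DI vs I. Of 11 RNA polymerase I and rDNA factors, 9 were below 0 in I vs C and 8 above 0 in D vs C, with no call by edgeR. With the block, 2 of them were higher and 1 lower in D vs C, 1 higher and 1 lower in DI vs I, and 1 lower in each of I vs C, DI vs D and DI vs C. The 18 tested translation factors and other TOP mRNAs had 17 below 0 in D vs C (−0.16) and also with both agents against control (−0.21), with no call by edgeR and, with the block, 2 and 9 lower, and 3 lower in DI vs I. None of the 4 chaperones dedicated to ribosomal proteins passed. Of 20 tested mTORC1 regulators, SESN2, a stress-induced mTORC1 inhibitor, rose in DI vs C (log2 fold change 1.79, SE 0.447, edgeR adjusted p = 0.0478), from 16.1, 13.4 and 11.3 CPM in control libraries, 44.6, 25.9 and 93.9 under doxycycline, 14.2, 15.9 and 10.4 under IFNγ and 46.2, 26.9 and 67.9 under both. The call of SESN2 was lost without any 1 of 9 libraries. With the block, 3 mTORC1 regulators were called higher and 2 lower in DI vs C, 2 higher and 1 lower in D vs C, and 2 higher in DI vs I. Of all 15828 tested genes, 467 were called higher in DI vs C by edgeR and 1514 with the block. Of 13 mitochondrially encoded mRNAs, 6 fell in D vs C, 3 in DI vs I and 6 in DI vs C by edgeR, and 13, 12 and 13 with the block, with medians of −1.96, −1.40 and −1.52.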

How the data were processed

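RNA-seq of 12 SK-N-DZ libraries was analysed from the raw counts per gene that the authors deposited. The aligner, counting tool and genome build are not given in the sources used here. The authors' own comparison tables hold log2 fold changes and p-values and were not used, nor were 18 library columns that the labels do not name. All gene IDs matched GENCODE 29 (GRCh38), which gave positions and transcript lengths. RefSeq (GRCh38.p14) gave the start windows. Genes were filtered with filterByExpr (minimum count 10), scaled by TMM and tested over all 12 libraries with edgeR 4.0.16's two-sided quasi-likelihood test (limma 3.58.1, R 4.3.3), with Benjamini-Hochberg adjustment over 15828 genes and a threshold of 0.05. DESeq2 1.42.0 was an alternative. Fits with other scalings, no filter, the replicate number as a block, only the groups compared, and each library left out were also run. The code was checked on simulated counts, where at the spread of these libraries it found large changes and missed most small ones. A first pass mark, set on the share of changed genes called, was not met. After that run it was replaced by marks on bias, sign, null rate and recovery of the largest changes. The simulated libraries were drawn independently, with no effect of replicate number, and the blocked fit was not checked.

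The members and lists were chosen with earlier results of these data known, so lists are described by counts and medians with no test. In each comparison the genes named were the called genes with the 6 smallest adjusted p in each direction or, with none, the 2 highest and the 2 lowest log2 fold changes. For levels they were the 4 highest and 4 lowest, for spread the 3 most variable, and in other lists the called genes. A few genes that these rules select are not reported here. Libraries ran from 16469832 to 21790869 counts. Chi-square per gene between libraries of 1 group ran from 18.6 to 82.2, so no library was a repeat of another. As deviations from their group mean, same-numbered libraries correlated at 0.34 to 0.80 (18 pairs) and others at −0.63 to 0.14 (36 pairs). From the values over all tested genes, the numbers in the labels were taken to pair the libraries, and blocked values stand beside results they change. Floors cover counting error only, while the SDs and SEs given include the spread between libraries.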

Additional observations from a re-analysis of the deposited data

How the results depend on the processing

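Calls among the 78 genes depended on the model more than on the scaling. DESeq2's size factors, and TMM computed without ribosomal protein and mitochondrially encoded genes, left the number of calls as it was in all 6 comparisons, and library size alone changed it only in DI vs C, to 4 (from 8). With no filter the calls were 0 in I vs C, 0 in DI vs D and 1 in DI vs C. Fits of only the groups compared gave 0, 0 and 1 in the same comparisons (1 gene dropped out of the filter in I vs C), and no such fit exists for the interaction. DESeq2's Wald test called 11 genes in D vs C, 3 in I vs C, 7 in DI vs I and 20 in DI vs C, all lower, where it called 3.37%, 0.386%, 2.97% and 3.45% of all genes as lower. The replicate block, which uses the pairing of the libraries by number, gave 22, 3, 12 and 41, and changed no count in DI vs D or the interaction. Adding pseudogene counts to their genes, an alternative chosen after seeing the data, gave 9 calls in DI vs C and the same numbers elsewhere.

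Leaving out single libraries gave 0 to 1 calls in I vs C, 0 to 1 in DI vs D and 1 to 7 in DI vs C. It moved the median log2 fold change in D vs C from −0.29 (without D replicate 3) to −0.16, and all other medians by less than the SD between replicates (0.098). The interaction values of 2 low-count genes changed sign, RPS10 from −0.84 to 0.13 and RPL36A from −0.35 to 0.096. The share of counts was 6.34% in C and 5.48% in DI with pseudogenes added, and 6.31% in C with mitochondrially encoded mRNAs left out of the total. The cause of these changes was not tested. At 3 libraries a group, missing the threshold does not show that a gene did not differ, and floors cover counting error only.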
